A study of Mus musculus with 117 samples.

Results

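Matrix metalloproteinases (Mmps) are zinc proteases that cut the proteins of the extracellular matrix, and the tissue inhibitors of metalloproteinases (Timps) bind and block them. Transcripts of 10 genes of these families, Mmp2, Mmp3, Mmp12, Mmp13, Mmp14, Mmp19, Timp1, Timp2, Timp3 and Timp4, were followed in mouse spinal cord after injury and during postnatal growth. The genes were chosen by name among the 27179 genes counted in every library, and all 10 were found by their Entrez identifiers. RiboTag mice carry a ribosomal protein gene that gains a hemagglutinin (HA) tag in cells with Cre recombinase, so that an antibody to the tag pulls down the ribosomes of these cells with the mRNA on them. RNA from the antibody beads gave the RiboTag libraries (n = 70), and RNA left in solution gave the flow-through libraries (n = 47), which stand for the remaining cells of the same tissue block. After a complete crush spinal cord injury (SCI) at cord level T10, the block held the lesion core with the border tissue on both sides, and a matching block was taken from uninjured mice.

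All mice were C57BL/6, and all carried the RiboTag allele and a Cre transgene, the uninjured mice included. In the Aldh1l1-CreERT2-RiboTag mice, tamoxifen given to young adults turned on Cre in astrocytes. Females were sampled uninjured (n = 4), 2 d after SCI (n = 5) and 5, 14, 28, 42 or 70 d after it (n = 4 each), and males 5 or 14 d after it (n = 4 each), with both kinds of library at each time. Libraries of both kinds with the same number in a group were taken to come from one mouse, which no label names. In the mGfap mice (labelled 73.12 GFAP Cre), a mouse Gfap promoter drove Cre without induction, so that any cell whose lineage once used this promoter kept the tag. Here 5 females at 14 d after SCI and 5 mice at postnatal day 63 without injury (P63, 3 males and 2 females) gave both kinds of library, and younger uninjured mice gave RiboTag libraries alone, at P0 (n = 4, all male), P3 (n = 3, 1 male), P7 (n = 3, 2 males), P14 (n = 5, 2 males), P21 (n = 4, 2 males) and P35 (n = 4, 2 males). The labels number the samples of a group, and p-values measure the spread between these samples.

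Secreted metalloproteinases leave the cell as inactive proenzymes and are activated by other proteases, whereas Mmp14 is anchored in the plasma membrane. Mmp2 is a gelatinase, Mmp3 a stromelysin, Mmp12 the macrophage elastase and Mmp13 a collagenase. Mmp14 is known to activate Mmp2 at the cell surface, in a complex that contains Timp2. Timp1, Timp2 and Timp4 are soluble, and Timp3 stays bound to the matrix. In injured spinal cord these proteins are known from the opening of the blood-spinal cord barrier, the entry of leukocytes and the building of scar tissue.

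Mmp3, Mmp12 and Mmp13 lay in a cluster of 10 metalloproteinase genes on chromosome 9 (GRCm38, chr9:7272514-7699585), at chr9:7445822-7455975, chr9:7344397-7360461 and chr9:7272514-7283333, all on the plus strand. The other members were spread over the genome, Mmp2 at chr8:92827290-92853421 (+), Mmp14 at chr14:54431598-54442456 (+), Mmp19 at chr10:128790910-128800827 (+), Timp1 at chrX:20870166-20874737 (+), Timp2 at chr11:118301061-118355411 (−), Timp3 at chr10:86300412-86349505 (+) and Timp4 at chr6:115244444-115252205 (−). Timp1, Timp3 and Timp4 each lay within an intron of a synapsin gene, Syn1, Syn3 and Syn2, on the opposite strand and with no shared exon. Mmp19 shared 1062 of its 3456 exonic bases with the exons of Tmem198b on the opposite strand. Mmp2 shared 612 of its 3206 exonic bases with Gm45472, an opposite-strand gene that was not among the genes counted. The paper states default parameters for the counting and does not name the strand setting. Whether reads of the shared stretches were counted for these members, or left out, was not tested.

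The 3 genes of the chromosome 9 cluster went from next to nothing to clear expression after SCI, and the 150 bases before their transcription starts are shown for that reason (RefSeq annotation of GRCm38.p6, plus strand, 5′ to 3′). Capitals mark TGANTCA, the form of the AP-1 site, which reads the same on both strands, and TATAAA, the TATA box, where a search of both strands found them.
Mmp3, chr9:7445672-7445821: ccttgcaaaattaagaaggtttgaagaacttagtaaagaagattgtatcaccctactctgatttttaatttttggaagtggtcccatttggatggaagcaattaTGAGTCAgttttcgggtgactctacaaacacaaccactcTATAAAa
Mmp13, chr9:7272364-7272513: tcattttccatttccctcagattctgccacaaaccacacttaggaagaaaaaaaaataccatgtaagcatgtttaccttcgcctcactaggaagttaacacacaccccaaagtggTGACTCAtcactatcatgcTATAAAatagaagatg
Mmp12, first start, chr9:7344247-7344396: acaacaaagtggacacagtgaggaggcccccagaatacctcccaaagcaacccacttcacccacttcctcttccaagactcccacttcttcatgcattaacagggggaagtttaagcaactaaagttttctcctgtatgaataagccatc
Mmp12, second start, chr9:7347224-7347373: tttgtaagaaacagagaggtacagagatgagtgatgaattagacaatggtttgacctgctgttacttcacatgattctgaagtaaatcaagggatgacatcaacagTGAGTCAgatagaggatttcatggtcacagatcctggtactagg
The AP-1 form began 46 bases before the start of Mmp3, 35 before that of Mmp13 and 44 before the second start of Mmp12. TATAAA began 7 bases before the start of Mmp3 and 16 before that of Mmp13. In the window of the first Mmp12 start neither was found. Windows were on hand for 8 of the 10 members, and Mmp14, Timp1, Timp2, Timp3 and Timp4 held neither sequence. GGGCGG, the GC box, was present in the windows of Mmp14, Timp1, Timp2 and Timp3 and in none of the chromosome 9 genes or Timp4. Of 32851 mouse promoter windows of this length, 4.24% held TGANTCA, 7.57% TATAAA and 28.6% GGGCGG, and no motif overlapped another in the windows shown. Such matches are descriptions of the letters and not binding sites.

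RiboTag libraries held 67253656 to 128400518 counts and flow-through libraries 40710428 to 136008399. Levels are given as CPM, the count relative to the total of its library, after one trimmed-mean (TMM) scaling of all libraries, and levels of different genes are compared only per kilobase of exon. Of 8 astrocyte markers, all 8 were higher in RiboTag than in flow-through libraries in each of the 9 states with both kinds, and in uninjured Aldh1l1 mice they had summed levels of 49478 to 58123 CPM against 1964 to 2398. Markers of other cell types were counted in the RiboTag libraries too. The 8 macrophage markers had sums of 48.0 to 95.8 CPM in its uninjured RiboTag libraries and of 10527 to 16209.6 at 14 d, against 4487 to 6170.2 in the flow-through at 14 d and 198 to 1586 in mGfap RiboTag libraries at 14 d, and none of the 8 was at 0. The 7 fibroblast and stroma markers had sums of 373 to 857 CPM in uninjured and 1394 to 2065 in 14 d RiboTag libraries of the Aldh1l1 line. One flow-through library at 5 d (replicate 4) was labelled male while its title and its RiboTag partner were not, and it was kept with the females.

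Among the members, Timp4 and Timp3 stood highest in uninjured Aldh1l1 RiboTag libraries, Mmp14 was the one abundant protease and lay above Timp2, and Timp1 was low. Per kilobase of exon, Timp4 was at 181 ± 13.8 CPM (mean ± s.d., n = 4) and Timp3 at 165 ± 10.7, and their libraries overlapped. Mmp14 followed at 91.3 ± 7.95 and Timp2 at 54.2 ± 8.12 CPM per kilobase, each apart from its neighbours in this order. Timp1 (5.92 ± 1.24), Mmp19 (4.16 ± 0.668) and Mmp2 (3.89 ± 2.38) formed a lower group whose neighbours overlapped. Mmp13, Mmp12 and Mmp3 were at 0.0406 ± 0.0338, 0.0331 ± 0.0309 and 0.0216 ± 0.0115 CPM per kilobase, overlapping one another. In these 4 libraries Mmp3 reached 0.0203 to 0.0663 CPM, Mmp12 0.0519 to 0.298 CPM and Mmp13 0.0260 to 0.213 CPM.

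The time course asked how astrocyte transcripts changed from 2 to 70 d after SCI, and it moved both families in both directions. Timp1 rose by a log2 of 7.04 within 2 d, Timp2 rose only from 5 d on, and Timp3 and Timp4 fell before returning toward their uninjured levels. The chromosome 9 proteases and Mmp19 rose by 2 d, Mmp2 from 5 d on, and Mmp14 passed the test at 5 and 14 d alone. Genes were tested with edgeR's quasi-likelihood test at a false discovery rate (FDR) under 0.01 over all 18205 genes tested, and log2 fold changes are given with their standard errors. Of all genes, 60.1%, 56.8%, 47.3%, 41.9%, 43.3% and 45.3% were called at the 6 times from 2 to 70 d, in this order. The shares higher were 30.2%, 28.7%, 24.5%, 22.8%, 23.3% and 23.9% and those lower 29.9%, 28.1%, 22.8%, 19.1%, 20.0% and 21.5%, and all injured libraries lay to one side of all uninjured ones for 58.7%, 63.1%, 55.0%, 48.2%, 44.9% and 45.3%. Among the 10 members, 5 were higher and 2 lower at 2 d, 8 higher and 2 lower at 5 and 14 d, 7 higher and 2 lower at 28 and 42 d, and 7 higher and 1 lower at 70 d. The members were picked by name, and their counts were not tested against these shares. Mmp3, Mmp12 and Mmp13 reached the filter's 0.102 CPM in 0, 1 and 2 of the 4 uninjured libraries and in all 25 injured ones, so they entered the test through the injured libraries. All 6 comparisons share the 4 uninjured mice.

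Timp1, the inducible inhibitor of the family, showed the largest rise of the inhibitors. Its RiboTag libraries held 4.07, 4.92, 5.36 and 6.71 CPM uninjured and 606, 659.9, 679.7, 698 and 791 CPM at 2 d. The level then came down to 325 to 427 CPM at 5 d, 219.7 to 307 at 14 d and 162 to 273 at 70 d, and at each time every injured library lay above every uninjured one. The log2 fold change was 7.04 ± 0.20 (FDR 4.2e-21) at 2 d, 5.55 ± 0.19 (FDR 1.7e-18) at 14 d and 5.30 ± 0.19 (FDR 5.1e-18) at 70 d. Between times, it fell from 2 to 5 d (−0.91 ± 0.15, FDR 1.0e-05) and from 5 to 14 d (−0.58 ± 0.16, FDR 0.0044), the latter call being lost without any one of 4 libraries (14 d replicates 2 and 4, 5 d replicates 3 and 4), with FDR 0.011 to 0.021.

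Timp2, which also takes part in the activation of Mmp2, moved late. The uninjured libraries held 162, 183, 217 and 224 CPM and the 2 d libraries 157, 196, 233, 239.9 and 242, and these groups overlapped (0.13 ± 0.10, FDR 0.27). At 5 d it was at 892, 893, 912 and 914 CPM, and at 14 d at 1467, 1495, 1593 and 1602 CPM, with all libraries above the uninjured ones. It rose by 2.18 ± 0.11 (FDR 9.3e-16) at 5 d, by 2.92 ± 0.12 (FDR 1.4e-17) at 14 d and was still up by 2.27 ± 0.11 (FDR 2.1e-15) at 70 d, when the libraries ranged from 894 to 1054 CPM.

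Timp3, the matrix-bound inhibitor, fell at every time. The uninjured libraries held 719.6, 744, 802 and 828 CPM and the 2 d libraries 253, 264, 296, 309.9 and 322 CPM, a clear gap (−1.42 ± 0.10, FDR 1.9e-13). The levels climbed back to 378 to 418 CPM at 14 d and 483 to 553 CPM at 28 d, a rise between these times of 0.47 ± 0.10 (FDR 0.0023). At 42 d the 505, 529.5, 570.3 and 744 CPM reached into the uninjured range, and the call (−0.38 ± 0.10, FDR 0.0022) was lost without 42 d replicate 1 or replicate 4 (FDR 0.011 and 0.015) and with only these groups in the fit (0.017). At 70 d it was still lower (−0.47 ± 0.10, FDR 0.00025).

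Timp4, the inhibitor with the highest uninjured level per kilobase, fell as well. It went from 485, 530.1, 534 and 584 CPM uninjured to 163, 208, 211, 274 and 289 CPM at 2 d and 169, 197, 197 and 237 CPM at 5 d, without overlap. The log2 fold change was −1.21 ± 0.14 (FDR 9.8e-09) at 2 d, −1.44 ± 0.15 (FDR 1.7e-09) at 5 d and −0.58 ± 0.15 (FDR 0.0015) at 28 d. By 70 d the libraries held 387, 421, 454 and 575 CPM, overlapped with the uninjured ones and were not called (−0.21 ± 0.15, FDR 0.23).

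Mmp14, the membrane-anchored protease, changed least. It measured 323, 328, 347 and 389 CPM uninjured, 445, 449, 460.0 and 523 CPM at 5 d and 426, 455, 459.5 and 461 CPM at 14 d, both above all uninjured libraries. The rise was 0.41 ± 0.08 (FDR 2.6e-05) at 5 d and 0.32 ± 0.08 (FDR 0.00058) at 14 d. At 2, 28, 42 and 70 d its libraries overlapped with the uninjured ones and the log2 fold changes ran from −0.07 ± 0.07 to 0.12 ± 0.08 without a call. Mmp2, the gelatinase that Mmp14 activates, followed a later course. Its uninjured libraries were spread widely, at 5.18, 7.76, 14.7 and 22.2 CPM, and the 2 d libraries lay within that spread at 6.41, 6.56, 7.73, 8.13 and 8.80 CPM (−0.72 ± 0.28, FDR 0.026). At 14 d it reached 49.1, 54.4, 55.4 and 68.5 CPM, above all uninjured libraries (2.13 ± 0.31, FDR 1.4e-06), and at 70 d it was at 18.6, 30.3, 33.5 and 34.1 CPM, overlapping with them but called (1.23 ± 0.30, FDR 0.0011). With only uninjured libraries and those of one time in the fit, Mmp2 was not called at 5, 28, 42 or 70 d (FDR 0.025 to 0.041). At 5 d it was called at 1.13 ± 0.30 (FDR 0.0018), but not without uninjured replicate 3 (0.96, FDR 0.010), and without uninjured replicate 3 or 4 the 2 d difference was called as a fall (−0.98 and −0.89).

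Mmp19, a secreted protease outside the main subfamilies, was the second most abundant of the member proteases per kilobase at 2 d. It rose from 11.9, 13.9, 14.2 and 17.5 CPM uninjured to 94.6, 107, 108, 111 and 117 CPM at 2 d (2.91 ± 0.11, FDR 2.9e-19), and no library overlapped. The level fell from 2 to 5 d (−0.72 ± 0.10, FDR 3.8e-07) and again from 42 to 70 d (−0.53 ± 0.10, FDR 0.00045). At 70 d it was still at 32.7, 38.9, 40.7 and 44.0 CPM (1.45 ± 0.10, FDR 3.0e-12). The stretch shared with Tmem198b touches all these values.

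The 3 proteases of the chromosome 9 cluster each kept a time course of their own. Mmp3 held 0.0203, 0.0260, 0.0426 and 0.0663 CPM uninjured and 1.73, 2.04, 2.90, 3.19 and 3.67 CPM at 2 d (6.08 ± 0.53, FDR 4.3e-11). It then dipped to 0.454, 1.10, 1.17 and 1.83 CPM at 5 d (−1.28 ± 0.37, FDR 0.0046 from 2 d, lost with FDR 0.011 to 0.025 when any one of 5 libraries of these days was left out) and regained 2.29, 2.88, 3.57 and 5.77 CPM at 14 d. Every injured library lay above every uninjured one at all 6 times. Mmp12, the macrophage elastase, held 0.0519, 0.0610, 0.0885 and 0.298 CPM uninjured and 3.39, 4.11, 6.68, 9.58 and 11.1 CPM at 2 d. It was highest at 14 d, with 56.7, 56.9, 68.3 and 86.6 CPM (8.97 ± 0.71, FDR 8.6e-11, 9.87 without uninjured replicate 2), a rise from 5 d of 2.01 ± 0.47 (FDR 0.0015). At 70 d the libraries held 7.66, 45.6, 48.0 and 60.7 CPM, and 70 d replicate 1 was the low one. Mmp13, the collagenase, held 0.0260, 0.0407, 0.155 and 0.213 CPM uninjured and was highest at 5 d, with 3.79, 5.49, 6.55 and 7.64 CPM (5.69 ± 0.70, FDR 5.4e-08). By 70 d it was down to 0.510, 0.597, 0.713 and 0.897 CPM (2.62 ± 0.67, FDR 0.0016, FDR 0.010 with only these groups in the fit), and at 42 d one library, replicate 4, at 0.125 CPM lay within the uninjured range while the others held 1.22 to 3.13 CPM.

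Markers of several cell types changed over the same days. All 8 macrophage markers were called higher in the RiboTag libraries at each of the 6 times, with summed levels of 1532 to 2592 CPM at 2 d, 14161 to 18527 at 5 d, 3981 to 7028 at 28 d and 1266 to 4109 at 70 d. Their sum was highest at 5 d. Of 8 astrocyte markers, 4 to 7 were called lower at each time, with 5 lower at 2 d and 7 at 5 d, and 1 was called higher from 14 d on. Their sum was 49478 to 58123 CPM uninjured, 22472 to 31082 at 2 d and 42832 to 51707 at 14 d. At 5 d the sum of the astrocyte markers was 24329 to 37374 CPM. Of 7 fibroblast and stroma markers, 2 were called higher and 2 lower at 2 d, and 3 higher and 1 lower at 5 d. At 14 d 5 of them were called higher, and at 70 d 1. Of 6 neutrophil markers, 1 was called higher at 2 d and none later, and 1 was called lower at 5 d. The part of these cell types in the members' changes was not tested, and in bulk libraries fewer cells of a kind cannot be told apart from less RNA per cell.

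**Figure D1:**
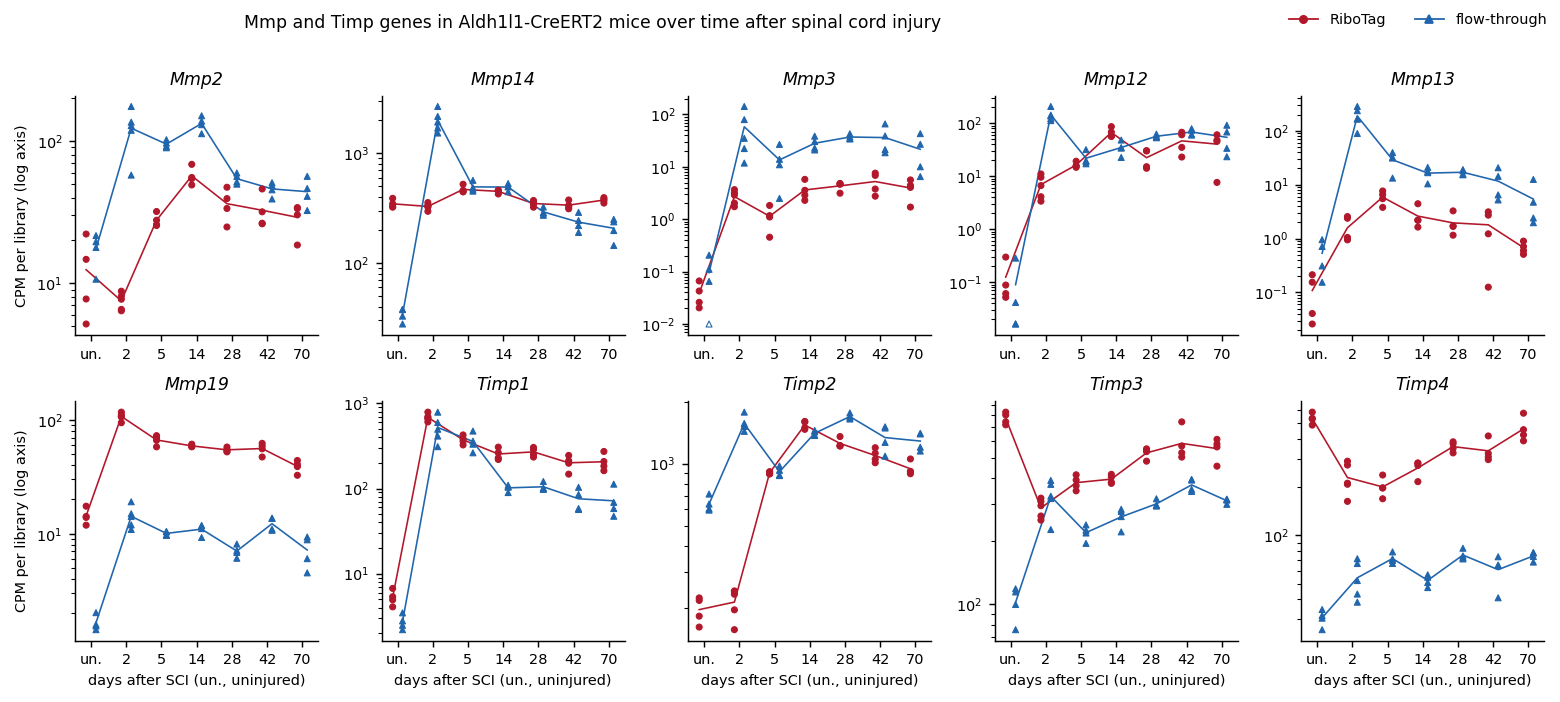
CPM (log axis) of the 10 genes in every Aldh1l1 library of females, uninjured (un.) and at the 6 times from 2 to 70 d after SCI, with RiboTag libraries as red circles, flow-through libraries as blue triangles and lines through the group means; a library at 0 is drawn as an open symbol at 0.01. Timp1 rose in both kinds of library, whereas Timp3 and Timp4 fell in RiboTag and rose in flow-through libraries, and Mmp14 stayed between 296 and 523 CPM in RiboTag libraries while its flow-through libraries lay at 27.8 to 37.8 CPM uninjured and at 1532 to 2676 CPM at 2 d.

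From one time to the next, most movement of the members came early. Between 2 and 5 d, when 41.4% of all genes were called (21.8% higher and 19.6% lower), 5 members rose (Mmp2, Mmp13, Mmp14, Timp2 and Timp3) and 3 fell (Mmp3, Mmp19 and Timp1). Between 5 and 14 d (25.3% of all genes, 12.7% higher and 12.6% lower), Mmp2, Mmp3, Mmp12 and Timp2 rose and Timp1 fell. The rise of Mmp2 at this step (1.01 ± 0.29, FDR 0.0090) lost its call in 21 of 29 fits that left out 1 library (0.91 to 1.08, FDR 0.010 to 0.030). Between 2 and 5 d, Timp3 (0.37 ± 0.10, FDR 0.0019) lost its call without 5 d replicate 4 (0.33, FDR 0.011), and Mmp13 (1.85 ± 0.52, FDR 0.0041) lost it without any one of 2 d replicates 2, 4 and 5 and 5 d replicates 3 and 4 (1.70 to 1.79, FDR 0.011 to 0.015). Between 14 and 28 d (7.40%, 2.92% higher and 4.48% lower), Mmp14 fell (−0.32 ± 0.08, FDR 0.0051) and Timp3 rose, and the call for Mmp14 was lost when any one of 6 libraries of these days was left out (FDR 0.011 to 0.024). Between 28 and 42 d (1.67%, 0.818% higher and 0.851% lower) no member was called, by edgeR or by DESeq2, while 2 members (Mmp12 and Timp1) and 3683 of all genes had an unadjusted p under 0.05 in edgeR. Between 42 and 70 d (12.6%, 5.14% higher and 7.45% lower), Mmp19 fell, which was not called with only these groups in the fit (FDR 0.023).

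Summed per kilobase of exon, the 4 Timps exceeded the 6 member Mmps in every group of RiboTag libraries. Other Mmps, such as Mmp15 and Mmp27, were not in the protease sum, so the ratios hold for these genes alone. In uninjured Aldh1l1 astrocytes the 4 Timps summed to 407 ± 3.54 CPM per kilobase and the 6 Mmps to 99.4 ± 5.57, a ratio of 4.10 ± 0.207 (mean ± s.d., n = 4). At 2 d the Timps were at 970.2 ± 98.1 and the Mmps at 124 ± 3.81, a ratio of 7.84 ± 0.789 (n = 5), and at 14 d the ratio was 5.10 ± 0.405 (n = 4). The make-up of the sums changed too. Timp1 gave 1.46% of the inhibitor sum in uninjured, 79.6% in 2 d and 32.2% in 14 d libraries. Timp2 gave 13.3%, 6.05% and 48.1% at the same states. Of the protease sum, Mmp14 gave 91.7% uninjured, 69.7% at 2 d, when Mmp19 gave 25.2%, and 68.1% at 14 d. By 70 d the ratio stood at 5.82 ± 0.719. Transcript sums say nothing of active protein, and the sums are dominated by a few members.

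**Figure D2:**
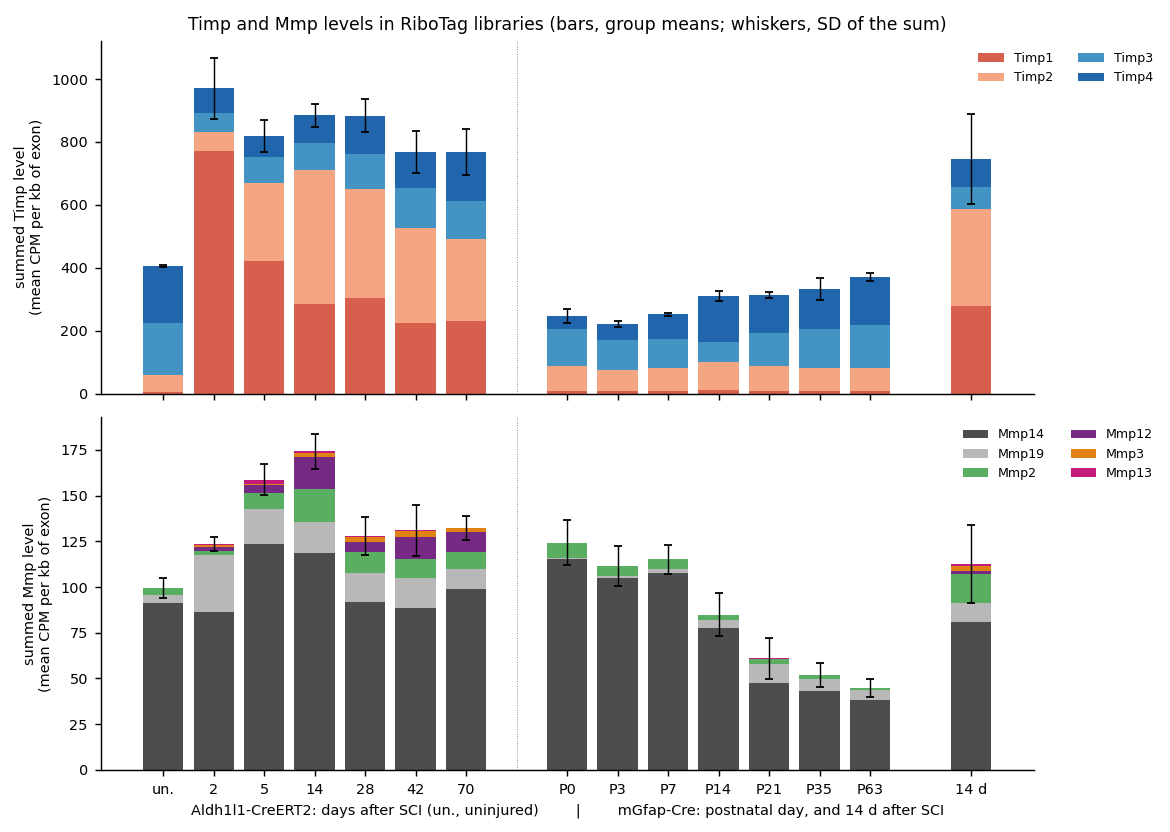
Stacked bars of mean CPM per kilobase of exon for the 4 Timps (top) and the 6 Mmps (bottom) in RiboTag libraries, over the Aldh1l1 time course, the mGfap ages P0 to P63 and mGfap 14 d after SCI, with whiskers for the s.d. of the sum over libraries. Timp1 fills most of the inhibitor bar at 2 d (79.6%), Timp2 is the largest share at 14 d (48.1%), and Mmp14 is the largest share of the protease bar in uninjured and injured Aldh1l1 groups.

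The flow-through libraries followed the rest of the tissue over the same days, and there the 10 members were called higher at all 6 times. Mmp3 and Mmp12 reached the filter's 0.104 CPM in 2 and 1 of the 4 uninjured libraries and in all 25 injured ones, so that they too were tested through the injured libraries. Of 19207 genes tested, 65.6%, 49.6%, 44.1%, 48.9%, 44.6% and 37.6% were called at the 6 times from 2 to 70 d, in this order. Those called higher were 32.6%, 27.7%, 24.6%, 26.4%, 25.3% and 21.8%. Mmp14 rose from 27.8, 32.8, 37.7 and 37.8 CPM to 1532, 1705, 1933, 2172 and 2676 CPM at 2 d (5.92 ± 0.20, FDR 4.0e-19) and was at 145 to 250.4 CPM at 70 d. No injured library came near the uninjured ones. Mmp13 lay at 0.155 to 0.955 CPM uninjured and at 89.0, 165, 166, 236 and 282 CPM at 2 d (8.47 ± 0.68, FDR 6.4e-12), and by 70 d it was at 1.97 to 12.5 CPM. Mmp12 was at 113, 123, 137, 143 and 208 CPM at 2 d, against at most 0.285 CPM uninjured (10.67 ± 0.57, FDR 1.2e-15, 12.43 without uninjured replicate 1, the library at this level). Mmp3 was the most spread, with 11.8, 22.4, 35.1, 79.9 and 142 CPM at 2 d (9.25 ± 0.97, FDR 1.5e-09, 9.90 without uninjured replicate 1 and 8.60 without 2 d replicate 4). Mmp2 rose from between 10.7 and 21.7 to between 57.6 and 175 CPM at 2 d (2.85 ± 0.23, FDR 4.8e-12) and Mmp19 from between 1.43 and 2.03 to between 10.9 and 19.1 CPM (3.14 ± 0.20, FDR 5.5e-14).

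Among the inhibitors, Timp1 rose most in the flow-through, from 2.20, 2.47, 2.79 and 3.46 to 311, 414, 498, 597 and 790.0 CPM at 2 d (7.61 ± 0.33, FDR 2.5e-17). Timp2, the most abundant member per kilobase in the uninjured flow-through (176 ± 14.7 CPM per kilobase), rose from between 596 and 713 to between 1435 and 1778 CPM at 2 d (1.33 ± 0.11, FDR 5.6e-12). Timp3 rose from 75.8, 99.9, 115 and 119 to 228, 320.2, 329, 374 and 391 CPM (1.72 ± 0.14, FDR 5.6e-12) and Timp4 from 25.8, 30.5, 31.7 and 34.5 to 38.3, 43.0, 52.2, 66.7 and 71.4 CPM (0.87 ± 0.16, FDR 1.6e-05), both in the direction opposite to the RiboTag libraries. The ratio of the summed Timps to the summed member Mmps per kilobase was 14.3 ± 2.34 in uninjured flow-through, 1.56 ± 0.291 at 2 d, 2.81 ± 0.176 at 14 d and 5.65 ± 1.29 at 70 d. The 7 fibroblast and stroma markers were all called higher at all 6 times, from between 258 and 581.6 CPM summed uninjured to between 1385 and 8781 at 2 d and 5788 to 6689 at 14 d, and 7 of 8 macrophage markers at 2 d and 8 of 8 later. Astrocyte markers moved in the flow-through as well. Of these 8, 3 were called higher and 3 lower on day 2. From day 14 on, each test called 4 to 6 of them higher and 0 or 1 lower. Summed, they ranged over 1964 to 2398 CPM in uninjured, 1404 to 3430 CPM in 2 d and 3388 to 6289 CPM in 42 d flow-through libraries. The part of these 3 marker sets in the flow-through changes was not tested.

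The direct comparison of RiboTag with flow-through libraries asked which members were higher or lower in the tagged cells than in the rest of the tissue, with a call at FDR under 0.01 and 2-fold or more. Timp4 and Mmp19 were called higher in RiboTag libraries in all 9 states, and Mmp14 and Timp3 only in the uninjured ones. Mmp3 was called lower in all 7 injured states and Mmp13 lower in all 7 injured states and at P63, while Mmp3 and Mmp12 did not pass the low-count filter in the uninjured states of either line. Of all genes, 41.1% were called in uninjured Aldh1l1 mice, 41.1%, 35.2%, 34.4%, 37.1%, 29.2% and 30.8% at the 6 times after SCI, 41.0% in mGfap P63 and 34.4% in mGfap 14 d mice.

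Timp4 stood 4.14 ± 0.11 (FDR 5.1e-11) above the flow-through on the log2 scale in uninjured mice, 2.04 ± 0.22 (FDR 6.0e-06) at 2 d and 2.60 ± 0.14 (FDR 1.1e-07) at 70 d. Mmp19 kept a log2 difference between 1.71 ± 0.21 (mGfap 14 d) and 3.69 ± 0.19 (mGfap P63). In uninjured mice, Mmp14 was at 323, 328, 347 and 389 CPM in RiboTag and 27.8, 32.8, 37.7 and 37.8 CPM in flow-through libraries (3.36 ± 0.11, FDR 2.3e-10). This difference turned at 2 d (−2.65 ± 0.16, FDR 9.3e-08) and was within 2-fold from 5 d on. Timp3 was higher by 2.93 ± 0.14 (FDR 3.3e-09) uninjured, overlapped at 2 d (−0.22 ± 0.15, FDR 0.22) and was within 2-fold at the later times. Timp2 was lower in uninjured RiboTag libraries (−1.68 ± 0.11, FDR 8.7e-08) and at 2 d (−2.90 ± 0.15, FDR 2.5e-08), and from 5 d on lay within 2-fold of the flow-through. Timp1 was within 2-fold uninjured (0.96 ± 0.21, FDR 0.0014), at 2 d (0.36 ± 0.22, FDR 0.16) and at 5 d, and higher in RiboTag libraries at 14 d (1.24 ± 0.11, FDR 3.3e-07), 28, 42 and 70 d. Uninjured Timp1 lay just below the 2-fold limit and passed it when uninjured flow-through replicate 1 or RiboTag replicate 3 or 4 was left out (1.01 to 1.09).

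The secreted proteases were mostly lower in RiboTag libraries after injury. At 2 d Mmp13 was at 0.945 to 2.56 CPM in RiboTag and 89.0 to 282 CPM in flow-through libraries (−6.91 ± 0.45, FDR 1.3e-07). Mmp3 differed by −4.45 ± 0.63 (FDR 6.1e-05), or by −3.77 without 2 d flow-through replicate 4, and Mmp2 by −4.06 ± 0.26 (FDR 1.3e-07) at the same time. For Mmp12 the order changed with time. It was lower in RiboTag libraries at 2 d (−4.40 ± 0.35, FDR 5.5e-07) and 28 d (−1.35 ± 0.27, FDR 0.0020). At 14 d it was above the flow-through in all libraries of females, 56.7, 56.9, 68.3 and 86.6 against 22.7, 34.1, 34.7 and 48.2 CPM. The difference was under 2-fold (0.86 ± 0.20, FDR 0.0027) unless 14 d flow-through replicate 2 was left out (1.05). In males at 14 d, which were not in this test, the flow-through held 49.5, 55.1, 66.4 and 85.3 CPM and overlapped with the RiboTag libraries. Of 8 macrophage markers, 1 was called higher and 2 lower in RiboTag than in flow-through libraries at 2 d. At 5 d 6 were higher and none lower, at 14 d 3 were higher and none lower, and at 28 d 1 was higher and 1 lower. Of 7 fibroblast and stroma markers, 6 were called lower at 14 d. Their part in these differences was not tested. Some calls rested on few libraries. Mmp3 at 5 d lost its call when any one of 5 of 8 libraries was left out (FDR 0.010 to 0.016) and at 70 d without RiboTag replicate 1 or flow-through replicate 4 (0.011), and Mmp13 lost it at 42 d in 5 of 8 such fits (0.012 to 0.040) and at mGfap P63 in 8 of 10 (0.011 to 0.022). With the mouse as a block, Mmp13 was called lower in uninjured Aldh1l1 mice (−2.39, FDR 0.0074) and not at mGfap P63 (−2.48, FDR 0.031).

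**Figure D3:**
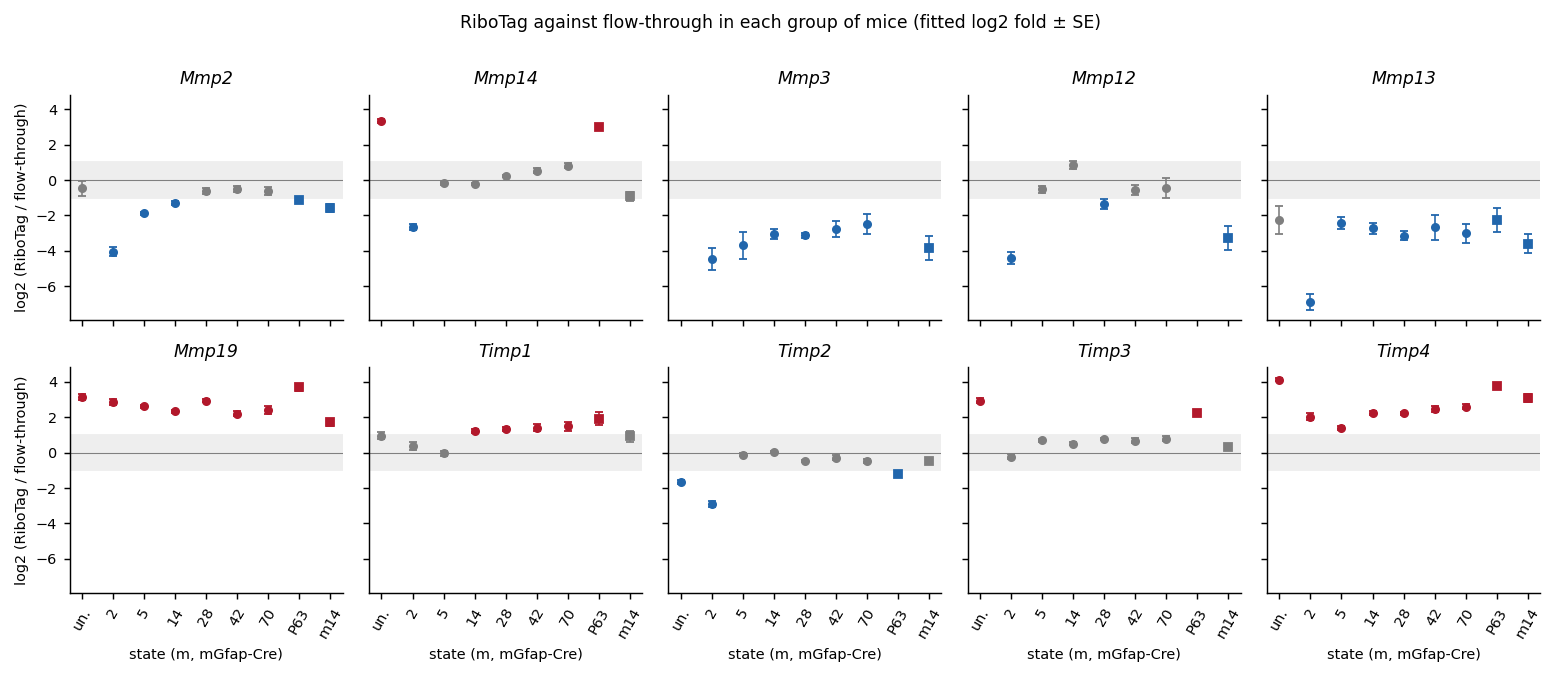
Fitted log2 ratio of RiboTag to flow-through libraries (± s.e.) for each member in 9 states, circles for the Aldh1l1 line and squares for the mGfap line, with the grey band covering differences within 2-fold; red marks members called higher in RiboTag libraries, blue those called lower and grey those not called. Timp4 and Mmp19 are red in every state, and Mmp14 goes from 3.36 ± 0.11 uninjured to −2.65 ± 0.16 at 2 d.

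Whether the response to SCI differed between RiboTag and flow-through libraries was tested in one model of both kinds, as the change from uninjured in RiboTag minus that in flow-through libraries. Over all 6 times, 9 of 10 members responded differently at FDR under 0.01, and 62.5% of all 19640 genes did. Mmp3 alone was not called (FDR 0.20), which cannot show a like response, as 0 of its 4 uninjured RiboTag libraries reached 0.102 CPM. Timp3 and Timp4 fell in RiboTag and rose in flow-through libraries, which gave log2 differences in response of −2.95 ± 0.16 (FDR 2.9e-21) and −1.89 ± 0.21 (FDR 7.0e-11) at 2 d, and both stayed called through 70 d. Mmp14 differed most at 2 d (−5.80 ± 0.18, FDR 2.9e-30) and still by −2.45 ± 0.18 (FDR 2.8e-15) at 70 d. For Timp2 the sign changed with time. Its response was weaker in RiboTag libraries at 2 d (−1.01 ± 0.14, FDR 1.6e-08) and stronger from 5 d (1.78 ± 0.15, FDR 2.9e-14) to 70 d (1.29 ± 0.15, FDR 8.7e-10).

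At single times, 50.7%, 28.5%, 24.5%, 28.4%, 23.3% and 17.7% of all genes were called at the 6 times from 2 to 70 d, in this order. Mmp2 (−3.39 ± 0.36, FDR 1.9e-11), Mmp12 (−4.72 ± 1.00, FDR 6.1e-05) and Mmp13 (−4.44 ± 1.07, FDR 0.00036) responded less in RiboTag libraries at 2 d. In uninjured RiboTag libraries Mmp12 and Mmp13 reached 0.102 CPM in 1 and 2 of 4. In uninjured flow-through libraries they reached 0.104 CPM in 1 and 4 of 4. The differences for Mmp12 and Mmp13 thus rest in part on uninjured levels near the floor. Without uninjured mouse 2 the call for Mmp12 was lost (−3.56, FDR 0.021), and without uninjured mouse 1 the difference was −6.61. The 2 d response of Timp1 did not differ detectably (−0.39 ± 0.30, FDR 0.26), nor did that of Mmp19 (−0.04 ± 0.20, FDR 0.88). Mmp19 responded less in RiboTag libraries at 42 d (−0.85 ± 0.21, FDR 0.0011), a call lost without uninjured mouse 2 (−0.72, FDR 0.011), and Mmp2 at 5 d (−1.19 ± 0.37, FDR 0.0086), a call lost in 14 of 29 fits without 1 mouse (FDR 0.010 to 0.057). With the mouse as a block, Mmp19 was also called at 14 d (−0.62, FDR 0.0044) and 70 d (−0.59, FDR 0.0090). In this model the median response difference of all genes was 0.30 on the log2 scale at 2 d, 0.19 at 5 d and 0.13 at 14 d.

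The mGfap line gave a second set of tagged cells, and at 14 d after SCI it showed the same directions for every member. Of 17848 genes, 44.2% were called between mGfap 14 d and P63 (27.7% higher and 16.4% lower), and all 10 members were, 8 higher and Timp3 and Timp4 lower. Mmp3, Mmp12 and Mmp13 reached the filter's 0.0962 CPM in 1, 0 and 1 of the 5 P63 libraries and in all 5 at 14 d. In the same comparison 6 of 8 macrophage, 6 of 7 fibroblast and stroma and all 4 oligodendrocyte markers were called higher, and 5 of 8 astrocyte markers lower. The astrocyte markers had sums of 51435 to 59663 CPM at P63 and 26069.7 to 43382 at 14 d, and their part and that of the other markers was not tested. The 14 d mice were all female, and 3 of the 5 P63 mice were male. The age of the 14 d mice is not given here, and a difference in age from P63 cannot be told apart from injury. Timp1 went from 4.34, 4.78, 5.98, 6.63 and 11.7 to 166, 196, 221, 237 and 425 CPM (5.31 ± 0.31, FDR 3.3e-10), with replicate 1 as the high library. Timp2 went from 244, 258, 269.2, 295 and 297 to 937, 983, 1162, 1164 and 1291 CPM (2.12 ± 0.11, FDR 7.5e-11). Timp3 fell by 0.84 ± 0.10 (FDR 8.4e-07) and Timp4 by 0.70 ± 0.14 (FDR 0.00033) on the log2 scale. Mmp14 rose from 125, 131, 144, 155 and 170.1 to 259, 261, 263, 311 and 441 CPM (1.17 ± 0.13, FDR 5.2e-07) and Mmp2 from 4.07, 4.31, 4.36, 4.76 and 5.02 to 35.6, 39.8, 54.7, 57.0 and 68.0 CPM (3.60 ± 0.31, FDR 3.0e-08). No library overlapped for any of these. Mmp3 was at 1.72, 2.15, 3.22, 7.63 and 10.6 CPM and Mmp13 at 1.01, 1.65, 2.00, 3.49 and 6.004 CPM after injury. Mmp12 had no count in any of the 5 P63 libraries and 2.22, 2.22, 2.70, 4.35 and 18.7 CPM at 14 d, on average at least 139-fold higher than 3 counts in a P63 library (0.0436 CPM), or at least 66.0-fold without replicate 4. The high library was replicate 4, whose macrophage markers summed to 1586 CPM against 274 CPM in the median library.

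Between the lines at 14 d, 23.3% of all genes and 4 members were called. Only the Aldh1l1 line was induced with tamoxifen, which cannot be told apart from the line. Mmp12 was lower in the mGfap line (−3.39 ± 0.61, FDR 0.00059, −4.49 without mGfap replicate 4), 2.22 to 18.7 against 56.7 to 86.6 CPM without overlap, and Mmp19 was lower too (−0.63 ± 0.11, FDR 0.00022). Mmp14 (−0.49 ± 0.14, FDR 0.0092) and Timp2 (−0.41 ± 0.11, FDR 0.0083) were lower by calls that did not survive leaving out any one of 12 and 9 of the 18 libraries (FDR 0.011 to 0.027 and 0.010 to 0.026). All 8 macrophage markers were called lower in the mGfap than in the Aldh1l1 RiboTag libraries at 14 d. Summed, they were at 198 to 1586 against 10527 to 16209.6 CPM, while the flow-through held 3911 to 12498 and 4487 to 6170.2 CPM. The neutrophil markers were lower in 4 of 6, at 0.759 to 23.3 against 64.6 to 152 CPM. Markers of other glia were higher in the mGfap line, all 4 of oligodendrocytes (22238 to 34175 against 1788 to 2417 CPM summed), all 4 of their precursors and all 3 of Schwann cells (2171 to 5010.3 against 165 to 460.3 CPM). None of the 8 astrocyte markers was called. The part of these cell types in the members' differences was not tested. Within the mGfap line, Mmp12 was lower in RiboTag than in flow-through libraries at 14 d (−3.26 ± 0.67, FDR 0.0013, −4.33 without RiboTag replicate 4), at 34.6, 38.8, 42.6, 49.8 and 119.7 CPM in the flow-through.

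**Figure D4:**
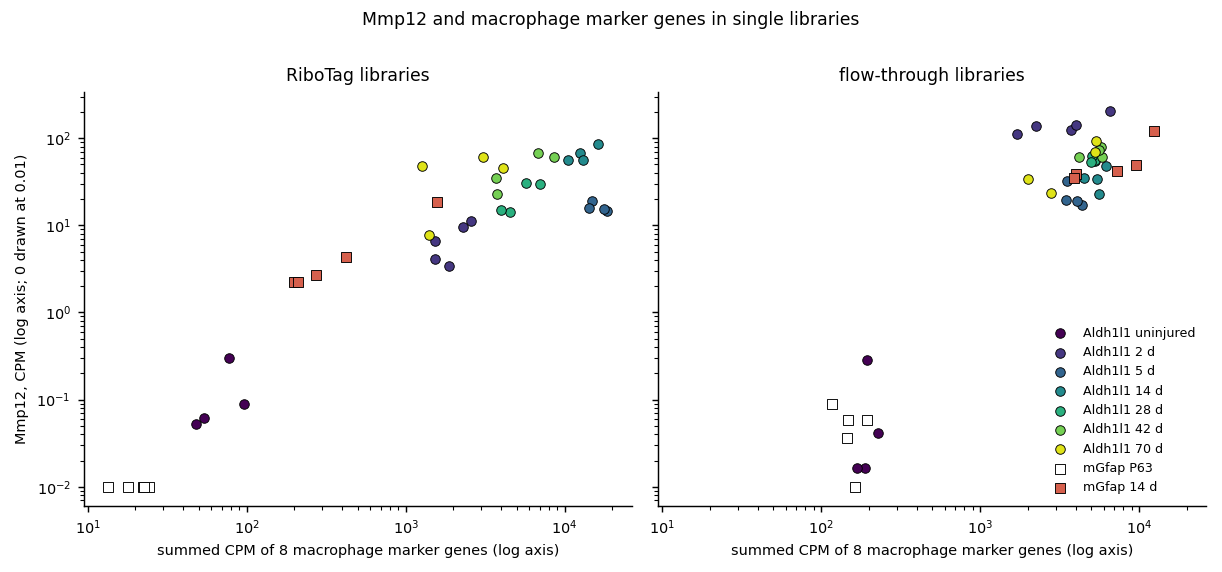
Mmp12 (CPM) against the summed CPM of 8 macrophage markers in each library, both on log axes, with RiboTag libraries on the left and flow-through libraries on the right; a library without Mmp12 counts is drawn at 0.01. RiboTag libraries of the mGfap line at 14 d lie at 2.22 to 18.7 CPM of Mmp12 and 198 to 1586 CPM of the markers, and those of the Aldh1l1 line at 14 d at 56.7 to 86.6 and 10527 to 16209.6 CPM.

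Without injury, 12.4% of all genes and 3 members differed between the lines. The paper gives an older age than P63 for the Aldh1l1 mice, and only their line was induced with tamoxifen. Line, age and tamoxifen therefore cannot be told apart here or in the comparison of the injury responses. Mmp14 was lower in P63 mGfap than in uninjured Aldh1l1 libraries (−1.30 ± 0.14, FDR 2.3e-06), 125 to 170.1 against 323 to 389 CPM, and so was Mmp2 (−1.51 ± 0.30, FDR 0.0015). With sex as a covariate Mmp2 was not called (−1.50, FDR 0.036), and neither was Timp2 (0.43 ± 0.11, FDR 0.0099; 0.31, FDR 0.20), whose call was also lost in 13 of 18 fits without 1 library. In this comparison 4 of 7 fibroblast and stroma, 6 of 6 neutrophil and 1 of 8 astrocyte markers were called lower in the mGfap line. Of the ependyma, oligodendrocyte and oligodendrocyte precursor markers, 3 of 4 each were called higher. The injury response itself differed between the lines for 3 members and 12.7% of all genes. Mmp14 rose more in the mGfap line (0.81 ± 0.19, FDR 0.0052, lost in 7 of 18 fits without 1 library, 0.59 to 0.81, FDR 0.011 to 0.046), and Mmp19 (−0.95 ± 0.16, FDR 0.00032) and Timp2 (−0.84 ± 0.16, FDR 0.00080; −0.72 and FDR 0.011 with sex as a covariate) rose less. These comparisons share the libraries of both lines. In the injury response, 6 of 8 macrophage and 1 of 8 astrocyte markers were called lower in the mGfap line. All 4 oligodendrocyte and 2 of 7 fibroblast and stroma markers were called higher. The part of these cell types in the members' differences between the lines was not tested. In the flow-through of the mGfap line, where 61.3% of all genes were called between 14 d and P63, 32.9% as higher, 9 members rose and Timp4 did not differ detectably (−0.06 ± 0.14, FDR 0.71). Of the 9, Mmp3 and Mmp12 reached the filter's 0.108 CPM in 2 and 0 of the 5 P63 libraries and in all 5 at 14 d. They thus entered this test through the injured libraries. Mmp14 rose there from 13.9, 16.4, 16.8, 18.1 and 22.6 to 358, 480.5, 493.3, 623 and 895 CPM (5.06 ± 0.26, FDR 1.3e-07).

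Postnatal growth moved Mmp14, Mmp2, Mmp19 and Timp4. Between P0 and P63, 50.2% of 18041 genes were called. All 4 P0 libraries were labelled male, and with labelled sex as a covariate the same 4 members were called. Mmp14 fell from 399, 418, 449.6 and 486 CPM at P0 to 125, 131, 144, 155 and 170.1 CPM at P63 (−1.61 ± 0.13, FDR 3.5e-11), and Mmp2 from 16.1, 27.9, 28.1 and 35.4 to 4.07, 4.31, 4.36, 4.76 and 5.02 CPM (−2.59 ± 0.19, FDR 4.3e-12), neither with overlap. Mmp19 rose from 0.938, 1.83, 2.02 and 5.35 to 14.9, 17.0, 18.5, 20.8 and 21.003 CPM (2.86 ± 0.31, FDR 9.0e-09, 3.54 without P0 replicate 3), and Timp4 from 59.5, 117, 135 and 155 to 417, 419, 426, 462 and 513 CPM (1.92 ± 0.18, FDR 4.1e-10). Timp1, Timp2, Timp3 and Mmp13 were not called between these ages. Mmp3 and Mmp12 did not pass the low-count filter, and their highest libraries at any age held 0.158 and 0.0915 CPM.

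From age to age, 4.83% of genes were called at P3 against P0, 2.73% at P7, 18.8% at P14, 23.1% at P21, 0.660% at P35 and 2.40% at P63, each against the age before. The members' calls fell between P7 and P21. From P7 to P14 Timp4 rose (0.89 ± 0.19, FDR 0.00074), and Mmp2 (−0.90 ± 0.20, FDR 0.0010) and Timp3 (−0.53 ± 0.13, FDR 0.0033) fell. Without P7 replicate 1 the calls for Timp4 (0.82, FDR 0.010) and Timp3 were lost, and that for Timp3 also without P7 replicate 2 or P14 replicate 2 (FDR 0.010 to 0.032). From P14 to P21 Mmp14 fell (−0.73 ± 0.13, FDR 0.00010), and Mmp19 (1.12 ± 0.28, FDR 0.0024) and Timp3 (0.68 ± 0.12, FDR 9.6e-05) rose. Mmp19 was highest at P21, with 31.5, 35.3, 37.8 and 39.0 CPM, and Timp3 lowest at P14, with 261, 292, 297, 313 and 333 CPM. At the remaining 4 steps no member was called by edgeR, although 2 members at P3, P7 and P35 and 1 at P63 had an unadjusted p under 0.05, and DESeq2 called a rise of Mmp19 at P7 (1.21, FDR 0.0082) and a fall of Mmp2 at P63 (−0.78, FDR 0.0021).

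Per kilobase, the ratio of summed Timps to summed member Mmps went from 1.98 ± 0.0270 at P0 to 8.35 ± 1.19 at P63. Other cells' markers changed with age as well. All 7 fibroblast and stroma markers were called lower at P63 than at P0, with sums of 4006 to 9807.3 CPM at P0, 402 to 634 at P14 and 181 to 303.9 at P63. The 3 Schwann cell markers had sums of 6272 to 19531 CPM at P0, 15332 to 16581 at P7 and 992 to 1966 at P63, and at P35 they ranged over 15.4 to 9467 CPM. At P35, replicate 1 stood apart for Timp2, Timp4 and Mmp13. Of 8 astrocyte markers, 5 were called higher and 1 lower at P63 than at P0. Their part in the members' changes was not tested.

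**Figure D5:**
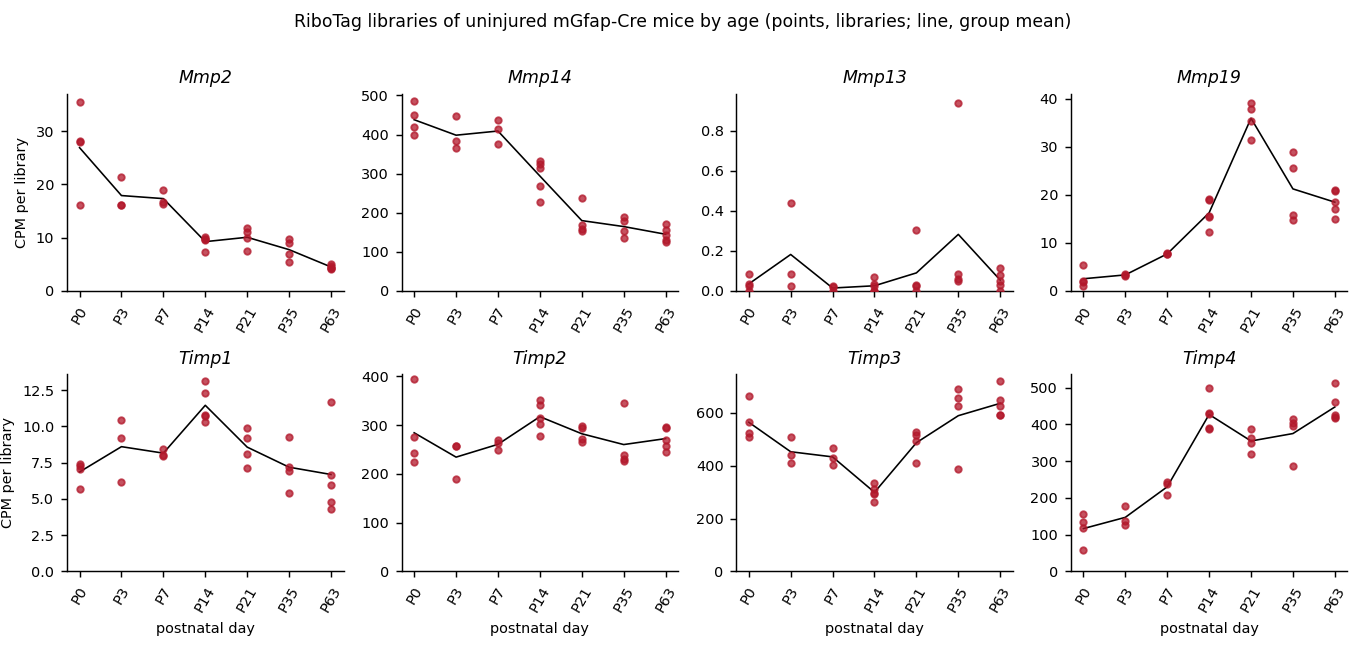
CPM of 8 members in mGfap RiboTag libraries by postnatal age, with a point for each library and a line through the means. Mmp14 and Mmp2 go down and Timp4 and Mmp19 go up between P0 and P63, and Mmp19 peaks at P21 (31.5 to 39.0 CPM).

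Males and females were compared at 5 and 14 d in Aldh1l1 RiboTag libraries, with time point as a covariate, and no member was called by edgeR or DESeq2. Of 17639 genes, 9 or 0.0510% were called and 583 had an unadjusted p under 0.05, none of them a member. The members' log2 differences of males from females ran from −0.14 ± 0.08 (Mmp19) to 0.40 ± 0.27 (Mmp13). At 14 d Timp1 was at 257, 293, 296 and 299 CPM in males and 219.7, 229, 264 and 307 in females, and Mmp12 at 67.2, 74.5, 80.5 and 101 and 56.7, 56.9, 68.3 and 86.6 CPM, with overlap in both.

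Other proteases and regulators of the same system were taken from a list of 44 genes, made up of the remaining Mmps, ADAM and ADAMTS proteases, the plasminogen activators that start metalloproteinase activation, and regulators such as Reck. Of these, 40 were tested in the RiboTag time course. At 2 d 18 were higher and 9 lower, where 30.2% and 29.9% of all genes were. At 14 d 22 were higher and 4 lower (24.5% and 22.8% of all genes), and at 70 d 15 and 4 (23.9% and 21.5%). These counts were not tested against the shares. Their median log2 fold change was 0.45 at 2 d, 1.02 at 14 d and 0.36 at 70 d, where the median of all genes stayed between −0.04 and 0.05. Among the largest rises were those of Adam8, a protease of leukocytes (9.05 ± 0.64 at 5 d), and Mmp27, another gene of the chromosome 9 cluster (7.59 ± 1.08 at 5 d). The largest falls were those of Adamts20 (−2.85 ± 0.18 at 2 d), the membrane-type protease Mmp15 (−1.95 ± 0.09 at 2 d) and Reck, a membrane-anchored inhibitor of Mmps (−1.50 ± 0.24 at 5 d).

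For 3 members the genes with the most similar course over the 29 female Aldh1l1 RiboTag libraries were looked up by Pearson correlation of log2 CPM, as a description without a test, since libraries of one time share their state. Timp1 was closest to Tgm1 (r = 0.99), Efemp2 (0.984) and Cebpd (0.983). Mmp3 was closest to Relb (0.95), Gch1 (0.943) and Osmr (0.941). Mmp12 was closest to Aldh1b1 (0.961), Gfpt2 (0.954) and Gpr183 (0.952).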

How the data were processed

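Poly-A selected RNA of 70 RiboTag and 47 flow-through libraries of mouse spinal cord was sequenced with paired-end reads on a NovaSeq. Per the labels and the paper's methods, the authors' Galaxy workflow used Trimmomatic for trimming, HISAT2 for alignment (mm10) and featureCounts at default settings for counting per gene, and they deposited raw counts for 27179 Entrez identifiers in each of 117 files. Versions of these tools stand in the reporting summary of the paper and are not repeated here. Of the identifiers, 25201 were named from RefSeq and 36 from GENCODE. Counts of 1 to 14 were even in 68.8% of cases (54.0% to 75.0% by library) and counts over 200 in 50.1%, so that a low count can stand for fewer fragments than its value.

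Tests were run in R 4.3.3 with edgeR 4.0.16 (TMM factors, filterByExpr, glmQLFit with legacy=TRUE and robust=TRUE, quasi-likelihood F tests), two-sided, with Benjamini-Hochberg adjustment over all genes tested and a threshold of FDR under 0.01. RiboTag against flow-through calls also needed a 2-fold difference. The fits were the RiboTag time course, the flow-through time course, RiboTag against flow-through in each state, the response to SCI in both kinds together, the mGfap line with the Aldh1l1 line, the mGfap flow-through, the postnatal ages, and the sexes with time point as a covariate. CPM in the text come from one TMM scaling of all libraries, and the length of a gene is the union of its RefSeq exons. Figures and tables were made with Python 3.11.15, pandas 2.3.3 and matplotlib 3.10.9. The fits were tested on simulated counts with known fold changes.

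Beads and solution of one immunoprecipitation gave a RiboTag and a flow-through library, and libraries of one number in a group were taken as such a pair, although no label names the mouse and one pair (5 d replicate 4) is labelled with different sexes. Their deviations from the group means correlated with r from −0.026 to 0.521 (median 0.108, 47 pairs, 25 over 0.1), and 41 of 47 correlated best with their own partner. The mouse as a block was an alternative. Other alternatives were DESeq2 1.42.0, upper quartile factors, no filter on low counts, FDR under 0.05, only the pair of groups in a fit, labelled sex as a covariate and leaving out each library in turn. The rule for named genes took all 10 members, and from the list of 44 related genes the 3 with the largest rise and the 3 with the largest fall among genes called and at 1 CPM or more in some RiboTag group, of which 1 gene is not reported here. The genes for correlation were the 3 most correlated with Mmp3, Mmp12 and Timp1. Members, lists, markers and tests were chosen with earlier results of these data known. Fold limits against groups without counts use 3 counts per library and cover counting error only.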

Additional observations from a re-analysis of the deposited data

Results flagged for a closer look

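In 23 of the 256 groups of 4 or 5 libraries examined (10 members in each group of that size, without 4 cases in which no library held over 3 counts), 1 library stood apart from the others by Dixon's test, where chance gives about 1 in 20. In Aldh1l1 RiboTag libraries these were Mmp3 at 28 d (replicate 1, 3.14 CPM, the others 4.65 to 4.79), Mmp12 uninjured (replicate 2, 0.298 CPM, the others 0.0519 to 0.0885), Mmp14 at 14 d (replicate 4, 426 CPM, the others 455 to 461), Timp1 in males at 14 d (replicate 3, 257 CPM, the others 293 to 299), Timp2 at 28 d (replicate 2, 1354 CPM, the others 1218 to 1225) and at 70 d (replicate 4, 1054 CPM, the others 894 to 918), and Timp4 at 14 d (replicate 2, 216 CPM, the others 272 to 282). In mGfap RiboTag libraries at 14 d, replicate 1 was high for Mmp14 (441 CPM, the others 259 to 311) and Timp1 (425 CPM, the others 166 to 237), and replicate 4 for Mmp12 (18.7 CPM, the others 2.22 to 4.35). The flow-through library of that replicate 4 was high for Mmp12 too (119.7 CPM, the others 34.6 to 49.8) and for Mmp3 (186 CPM, the others 30.4 to 63.2).

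Among the uninjured mGfap mice, P35 replicate 1 stood apart for Mmp13 (0.938 CPM, the others 0.0501 to 0.0825), Timp2 (345 CPM, the others 226 to 239) and Timp4 (286 CPM, the others 396 to 415). Single libraries stood apart for Mmp2 at P14 (replicate 3, 7.31 CPM, the others 9.57 to 10.0), Mmp13 at P21 (replicate 1, 0.307 CPM, the others 0 to 0.0294), Mmp3 at P63 (replicate 5, 0.158 CPM, the others 0) and Mmp19 in the P63 flow-through (replicate 1, 0.744 CPM, the others 1.46 to 1.69). In Aldh1l1 flow-through libraries they were Mmp12 uninjured (replicate 1, 0.285 CPM, the others 0.0163 to 0.0415) and at 5 d (replicate 4, 31.9 CPM, the others 17.2 to 19.6), the library with the conflicting sex labels, and, at 28 d, replicate 4 for Timp1 (121 CPM, the others 97.7 to 101) and Timp3 (319 CPM, the others 295 to 297). Whether these were technical was not tested.

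The response to SCI over all 6 times differed between RiboTag and flow-through libraries for 9 members by edgeR's quasi-likelihood test (F with 6 numerator degrees of freedom), with F of 174 for Mmp14, 115 for Timp2, 57.0 for Timp3, 24.4 for Mmp2, 23.6 for Timp4, 15.9 for Mmp12, 9.66 for Mmp13, 6.49 for Timp1 and 5.51 for Mmp19 (FDR 1.2e-27 to 0.00039). Between the Cre lines, the 14 d response differed for Mmp14 by 0.81 ± 0.19 (FDR 0.0052), for Mmp19 by −0.95 ± 0.16 (FDR 0.00032) and for Timp2 by −0.84 ± 0.16 (FDR 0.00080) on the log2 scale.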

How the results depend on the processing

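Over 610 values and 16644 recomputations of them, no called value changed its direction. The replicate numbers of the time points share only a number with the uninjured mice (24 pairs, r −0.074 to 0.131, median 0.002, 8 best with their own number). With the replicate block, calls were lost for Mmp3 from 2 to 5 d (FDR 0.011), Timp2 uninjured between lines (0.014) and Mmp14 (0.012) and Timp2 (0.027) at 14 d between lines, which left 2 members there, and 186 genes were called from 28 to 42 d; upper quartile factors also left 2 members at 14 d between lines. The remaining effects of the block stand beside their results. With no filter on low counts, calls were lost for Mmp2 from 5 to 14 d (FDR 0.013) and in the response at 5 d (0.012), for Mmp13 (42 d, 0.024, and mGfap P63, 0.020) and Mmp3 (70 d, 0.010) between RiboTag and flow-through libraries, and for Timp2 between uninjured lines (0.012).

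At FDR under 0.05 the counts rose, from 14 to 28 d to 2795 genes and 4 members (1348 and 2 at 0.01), from 28 to 42 d to 1094 genes, from 42 to 70 d to 4288 genes and 2 members (2293 and 1), for P63 mGfap against uninjured Aldh1l1 to 3978 genes (2213), for line by injury to 3882 (2258), for P3 against P0 to 2188 (871), P7 against P3 to 1197 and 1 member (0 members at 0.01), P14 against P7 to 5123 and 5 members (3388 and 3), P35 against P21 to 444 (119) and P63 against P35 to 1363 and 1 member (433 and 0). DESeq2 called 713 genes from 28 to 42 d, 1570 at P3, 953 and 1 member at P7, 5 members at P14, 405 genes at P35 and 998 genes and 1 member at P63. With only the pair of groups in a fit, 4 members were called from 14 to 28 d, 2 genes from 28 to 42 d, and 158 genes and 0 members from 42 to 70 d. That fit also lost Mmp2 at 5, 28, 42 and 70 d (FDR 0.025 to 0.041), Timp3 at 42 d (0.017) and Mmp13 at 70 d (0.010). Labelled sex as a covariate left 729 genes and 1 member between uninjured lines, 1423 genes for line by injury and 497 genes at P3. Causes were not tested.

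Leaving out 1 library at a time gave 5 to 9 members from 2 to 5 d, 3 to 5 from 5 to 14 d, 475 to 1547 genes and 1 to 3 members from 14 to 28 d, 93 to 452 genes from 28 to 42 d, 1391 to 2630 genes and 1 to 3 members from 42 to 70 d, and 2 to 4 members between lines at 14 d. For the ages it gave 361 to 1460 genes and 0 to 1 member at P3, 151 to 875 and 0 to 2 at P7, 1869 to 4195 and 1 to 5 at P14, 61 to 316 genes at P35 and 240 to 880 genes and 0 to 1 member at P63. Other scalings shifted the median of all genes by up to −0.20 (log2) in the response model and −0.17 in RiboTag against flow-through. They moved the share of higher calls from 40.8% to 52.2% (42 to 70 d, upper quartile), 61.8% to 49.6% (response at 5 d, upper quartile), 60.9% to 48.8% (line by injury, DESeq2), 26.9% to 39.3% (P35, DESeq2) and 25.2% to 37.0% (P63, DESeq2). Bulk counts cannot place a transcript in a cell, low counts limit Mmp3, Mmp12 and Mmp13 in uninjured tissue, and 3 to 5 mice a group limit all tests.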
